A study of Mus musculus with 4 samples.

Results

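Cells sense oxygen through the hypoxia-inducible factors (HIFs). In the presence of oxygen the prolyl hydroxylases encoded by *Egln1*, *Egln2* and *Egln3* mark HIF-1α, the product of *Hif1a*, and the VHL protein then binds the marked factor and directs its destruction. When oxygen is short HIF-1α is no longer destroyed, pairs with ARNT and binds hypoxia response elements of target genes, and in T cells stimulation through the antigen receptor raises HIF-1α as well. The 10 genes described here are this sensor system (*Hif1a*, *Egln1*, *Egln2*, *Egln3* and *Vhl*) and 5 genes known as hypoxia targets (*Bnip3*, *Bnip3l*, *Vegfa*, *Ndrg1* and *Ankrd37*). They were taken by name from the 24369 genes listed in the files. *Egln3* is itself a well-known HIF target, so it belongs to both sides.

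The data were 4 RNA-seq libraries of mouse spleen CD4 T cells of WT genotype (C57BL/6 in the methods), 2 transduced with an empty vector (EV RV) and 2 with a retrovirus encoding Tox (Tox RV). All cells were activated for 2 days before transduction with anti-CD3, anti-CD28 and IL-2 without polarizing cytokines, cultured for 5 days in total and restimulated through CD3. The treatment label of every library names anti-CD28 where the methods name recombinant human IL-2. Both vectors carry GFP and the cells were sorted for it, so each group is a bulk of transduced cells, in which fewer cells of a type and less RNA per cell cannot be told apart. The libraries of a group are biological replicates from 2 mice, the age of which is not given in the sources used here. Oxygen was not a variable of the design, and HIF-1α protein was not measured in these libraries.

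The libraries held 46989997 to 74548723 expected counts. EV RV replicate 1 stood apart from the others: its score on the leading principal component (64.3% of the variance) was -42.8 while the other 3 libraries scored between 5.70 and 19.6, and *Rn45s*, the ribosomal RNA precursor, held 24.7% of its counts against 7.14% to 12% elsewhere. Wherever a pair of values is given for a group, replicate 1 comes before replicate 2. *Tox* itself measured 11.7 and 5.73 CPM (counts per 1000000, scaled by TMM) for EV RV against 121 and 99.9 CPM for Tox RV, as the labels require. The summed level of 5 CD4 T cell markers was 1309 to 1919 CPM. The 7 markers of CD8 T and NK cells summed to 136 and 125 CPM for EV RV against 105 and 82.5 CPM for Tox RV, the 6 B cell markers to 2.06 to 2.35 CPM and the 8 myeloid markers to 1.68 to 2.23 CPM. Most of the CD8 T and NK cell sum was *Eomes*, a T-box factor that activated T cells can also express, at 79.8 and 109 CPM for EV RV against 72.2 and 71.2 CPM for Tox RV. The NK receptor genes *Klrk1* (36.6 and 10.5 against 17.2 and 4.86 CPM) and *Klrd1* (14.2 and 1.90 against 10.2 and 1.99 CPM) were higher in replicate 1 of both groups. The CD8 genes were low in every library, with *Cd8a* at 1.54 and 2.14 against 1.56 and 1.75 CPM. *Cd8b1* was at 3.10 and 1.73 against 3.21 and 2.51 CPM. *Ncr1*, *Ms4a1* and *Pax5* had 0 counts in every library, while the B cell genes *Cd79a*, *Cd79b* and *Cd22* had 13 to 66 counts in each. The part of these cells in the results below was not tested.

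All 10 genes had enough counts to be tested, and none passed an adjusted p of 0.05 with the Tox retrovirus. In edgeR's quasi-likelihood test 0 of the 10 genes were called at an adjusted p under 0.05, as were 0% of the 14143 genes tested. *Tox* itself was not called at a log2 fold change of 3.68 (adjusted p = 0.490 by edgeR), and no gene had a smaller adjusted p. In DESeq2 the adjusted p of *Tox* was 3.8e-24. A gene that misses 0.05 in the edgeR test is therefore not shown to be unchanged. At an unadjusted p under 0.05 edgeR called 0 of the 10 genes, against 3.62% of all genes tested. DESeq2 also called 0 of the 10, against 0.121% of the 18183 genes for which it gave an adjusted p. The groups did not overlap in 2 of the 10. Tox RV was wholly above EV RV in 0 of the 10, against 18.6% of all genes, and wholly below in 2 (*Hif1a* and *Egln3*), against 17.4%. The log2 fold changes were positive in 5 and negative in 5, with a median of -0.01 beside 0.0036 over all genes tested.

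**Figure D1:**
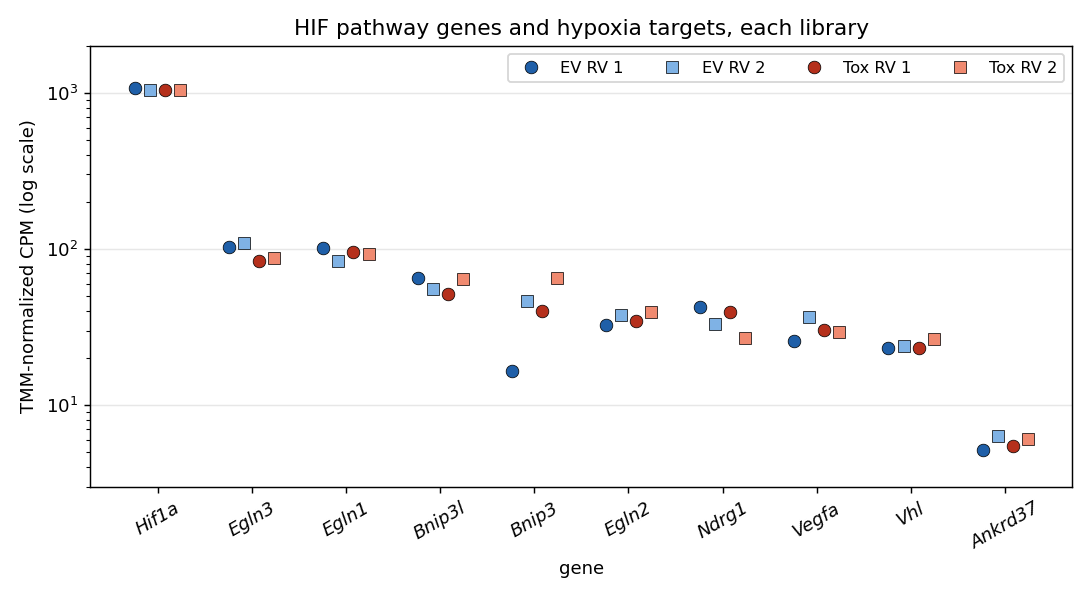
TMM-normalized CPM (log scale) of the 10 genes in each library, ordered by mean; circles are replicate 1, squares replicate 2, blue EV RV and red Tox RV. *Hif1a* lay between 1038 and 1078 CPM in the 4 libraries, while *Bnip3* ran from 16.5 CPM in EV RV replicate 1 to 64.8 CPM in Tox RV replicate 2.

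*Hif1a*, the oxygen-regulated subunit itself, is a protein-coding gene, as are the other 9, and occupies 73901375 to 73947530 of chromosome 12 (plus strand, mm10 as for all gene positions here). It measured 1078 and 1048 CPM for EV RV against 1038 CPM for each Tox RV library. Both Tox RV libraries therefore lay just under the EV RV libraries, and all 4 were within a ratio of 1.04 from highest to lowest. In log2 terms Tox RV differed from EV RV by -0.03 (standard error, SE, 0.15; 95% interval -0.41 to 0.34, adjusted p = 0.973 by edgeR), and it was 0.09 when libraries were scaled by their totals alone. On the TPM scale (transcripts per 1000000, which corrects for gene length), *Hif1a* was at 389 and 360 TPM in EV RV and 345 TPM in each Tox RV library. Its mean TPM ranked 280 of the 14143 genes tested, which makes *Hif1a* the most abundant of the 10 per length.

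Of the 3 prolyl hydroxylases, *Egln3* was the most abundant transcript per length in every library, with a mean of 59.8 TPM, followed by *Egln1*, the main HIF hydroxylase in most tissues, with 43.9 TPM, and *Egln2* with 28.9 TPM. *Egln3* (chromosome 12, 54178981 to 54203860, minus strand) measured 103 and 109.7 CPM for EV RV against 83.9 and 87.2 CPM for Tox RV. The groups did not overlap, and the libraries within each group lay close together, with a mean of 106 ± 5.10 CPM for EV RV and 85.6 ± 2.37 CPM for Tox RV (SD, n = 2 each). The log2 fold change of *Egln3* was -0.31 (SE 0.16, 95% interval -0.71 to 0.09), the most negative of the 10 genes, and it did not pass the test (adjusted p = 0.897 by edgeR). Leaving out any library gave -0.37 to -0.26. Since the groups do not overlap, no such choice can turn the sign.

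*Egln1* (chromosome 8, 124908587 to 124949324, minus strand) measured 102 and 83.5 CPM for EV RV against 95.9 and 92.9 CPM for Tox RV. Both Tox RV libraries lay inside the EV RV range, and the groups differed by 0.03 on the log2 scale (SE 0.18, 95% interval -0.41 to 0.47). *Egln2* (chromosome 7, 27158658 to 27166802, minus strand) measured 32.7 and 37.6 CPM for EV RV against 34.6 and 39.7 CPM for Tox RV. Its groups overlapped, with replicate 2 higher in each, at a log2 fold change of 0.08 (SE 0.18, 95% interval -0.37 to 0.53). The direction of *Egln1* and *Egln2* was not stable. *Egln1* was -0.10 without EV RV replicate 2, and *Egln2* was -0.02 without EV RV replicate 1. Both were also below 0 on the TPM scale, as was the median of all genes there (-0.049 with log2(TPM + 1)).

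Ratios between hydroxylases of the same library need no scaling between libraries. The TPM of *Egln3* over that of *Egln1* was 1.34 and 1.74 for EV RV against 1.16 and 1.25 for Tox RV, and that of *Egln3* over *Egln2* was 2.43 and 2.27 against 1.88 and 1.71. Both ratios were thus lower in each Tox RV library than in either EV RV library. These ratios were chosen after the values of *Egln3* had been seen and were given no test.

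*Vhl*, the substrate receptor of the ubiquitin ligase that removes hydroxylated HIF-1α (chromosome 6, 113623959 to 113631633, plus strand), was among the steadiest of the 10 genes. It measured 23.3 and 23.9 CPM for EV RV against 23.3 and 26.6 CPM for Tox RV, with a log2 fold change of 0.08 (SE 0.17, 95% interval -0.35 to 0.51). The 4 libraries lay within a ratio of 1.15, and the groups overlapped.

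Among the hypoxia targets, *Bnip3* varied most. It encodes a mitochondrial protein of the BCL2 family that recruits the autophagy machinery to mitochondria, and lies on chromosome 7 from 138890836 to 138909519 (minus strand). *Bnip3* measured 16.5 and 46.5 CPM for EV RV against 40.3 and 64.8 CPM for Tox RV, behind which stood 696, 3538, 2548 and 3362 rounded counts. EV RV replicate 1 was far below the other 3 libraries, and EV RV replicate 2 lay between the Tox RV libraries. Between the groups it differed by 0.74 on the log2 scale (SE 0.50, 95% interval -0.51 to 1.98, adjusted p = 0.897 by edgeR), and the adjusted p in DESeq2 was 0.9995 (unadjusted p 0.0765). The size depended on single libraries, most on those of EV RV: leaving out EV RV replicate 1 gave 0.17 and leaving out EV RV replicate 2 gave 1.68. Leaving out Tox RV replicate 1 or 2 gave 1.03 or 0.35. The log2 difference between the EV RV replicates was -1.47, and only 1.39% of the 14143 genes tested differed between these libraries by as much or more. Between the Tox RV replicates it was -0.68, with 3.80% of genes differing by as much or more.

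*Bnip3l* (chromosome 14, 66985239 to 67008877, minus strand), the paralog that encodes NIX with a like role in the removal of mitochondria, did not share this spread. It measured 65.1 and 55.0 CPM for EV RV against 51.1 and 64.6 CPM for Tox RV, with overlapping groups and a log2 fold change of -0.05 (SE 0.20, 95% interval -0.55 to 0.44). The TPM of *Bnip3* over that of *Bnip3l* was 0.487 in EV RV replicate 1 and 1.62 in EV RV replicate 2, and 1.51 and 1.93 in the Tox RV libraries. *Bnip3l* was thus the more abundant of the pair per length in EV RV replicate 1 and *Bnip3* in the other 3 libraries.

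The promoters of *Bnip3* and *Egln3* are printed because these genes had the most positive and the most negative log2 fold change of the 10. Each line gives the 250 bases before the RefSeq transcription start (GRCm38.p6, the assembly of mm10), 5′ to 3′ on the gene's strand, from chr7:138909507-138909756 for *Bnip3* and chr12:54203875-54204124 for *Egln3*, both on the minus strand. Capitals mark ACGTG or GCGTG, the core of the hypoxia response element, on either strand (CACGT or CACGC on the other), so that CACGTG counts once on each strand.
Bnip3: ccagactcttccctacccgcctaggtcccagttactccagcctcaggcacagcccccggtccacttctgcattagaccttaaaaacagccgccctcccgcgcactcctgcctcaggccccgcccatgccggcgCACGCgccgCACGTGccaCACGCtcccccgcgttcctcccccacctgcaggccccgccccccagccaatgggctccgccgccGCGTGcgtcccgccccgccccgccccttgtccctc
Egln3: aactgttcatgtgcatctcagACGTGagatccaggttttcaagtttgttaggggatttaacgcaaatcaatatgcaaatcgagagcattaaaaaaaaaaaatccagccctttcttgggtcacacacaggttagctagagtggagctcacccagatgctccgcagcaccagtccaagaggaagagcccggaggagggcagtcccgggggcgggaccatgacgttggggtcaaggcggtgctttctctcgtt

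The *Bnip3* window held 5 matches, which began 117, 108, 107, 99 and 35 bases before the start, and the *Egln3* window held 1, which began 229 bases before it. Windows of 300 bases, 250 before and 50 after the start, numbered 10 for 8 of the 10 genes, and *Bnip3l* and *Ndrg1* had none. At least 1 match was found in 8 of the 10 windows, with up to 6 in a window of *Egln2*. These 8 include the window of *Hif1a* and 1 of *Vegfa* that lie inside the gene spans given here, not at their starts. For both, a stretch of bases just after the start was not found in a GENCODE transcript of the gene. The windows with 0 were that of *Vhl* and, of the 2 of *Vegfa*, the one at the start of the gene. Among all 32851 promoter windows 43.8% held at least 1 match and 20.6% held 2 or more, so that a match of these letters is common. The matches describe the sequence and were not read as bound sites.

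*Vegfa*, which encodes the angiogenic growth factor VEGF-A (chromosome 17, 46016993 to 46032369, minus strand), measured 25.9 and 36.7 CPM for EV RV against 30.1 and 29.3 CPM for Tox RV. The Tox RV libraries agreed closely and lay between the EV RV libraries. Its log2 fold change was -0.08 (SE 0.22, 95% interval -0.62 to 0.47). *Vegfa* is the only one of the 10 with several transcripts in the files, 9 in all.

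*Ndrg1*, a stress-responsive gene long used as a readout of hypoxia (chromosome 15, 66929318 to 66969640, minus strand), measured 42.3 and 33.2 CPM for EV RV against 39.6 and 26.8 CPM for Tox RV. Replicate 1 was the higher in both groups, the reverse of *Bnip3*, and the groups overlapped. The log2 fold change of *Ndrg1* was -0.18 (SE 0.25, 95% interval -0.81 to 0.44), and it was 0.08 without Tox RV replicate 2.

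*Ankrd37*, an ankyrin repeat gene and a direct HIF-1 target (chromosome 8, 45996902 to 46005707, minus strand), was the least abundant of the 10 on both scales. It measured 5.12 and 6.32 CPM for EV RV against 5.47 and 6.07 CPM for Tox RV, from 216 to 481 rounded counts. Both Tox RV libraries lay inside the EV RV range, and the groups differed by 0.01 on the log2 scale (SE 0.24, 95% interval -0.58 to 0.60). *Ankrd37* overlaps *Ufsp2* and *Lrp2bp*, *Egln2* overlaps *Cyp2t4*, *Bnip3* overlaps *Gm45507* and *Gm18258*, and *Ndrg1* overlaps *Gm17035* and *Gm2895*, each on the other strand. *Hif1a* overlaps *Gm15283* on the other strand and the protein-coding *Gm49321* on the same strand. As the use of strand in counting is not stated, reads in these overlaps could belong to either gene. For *Gm49321*, strand would not tell them apart in any case.

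**Figure D2:**
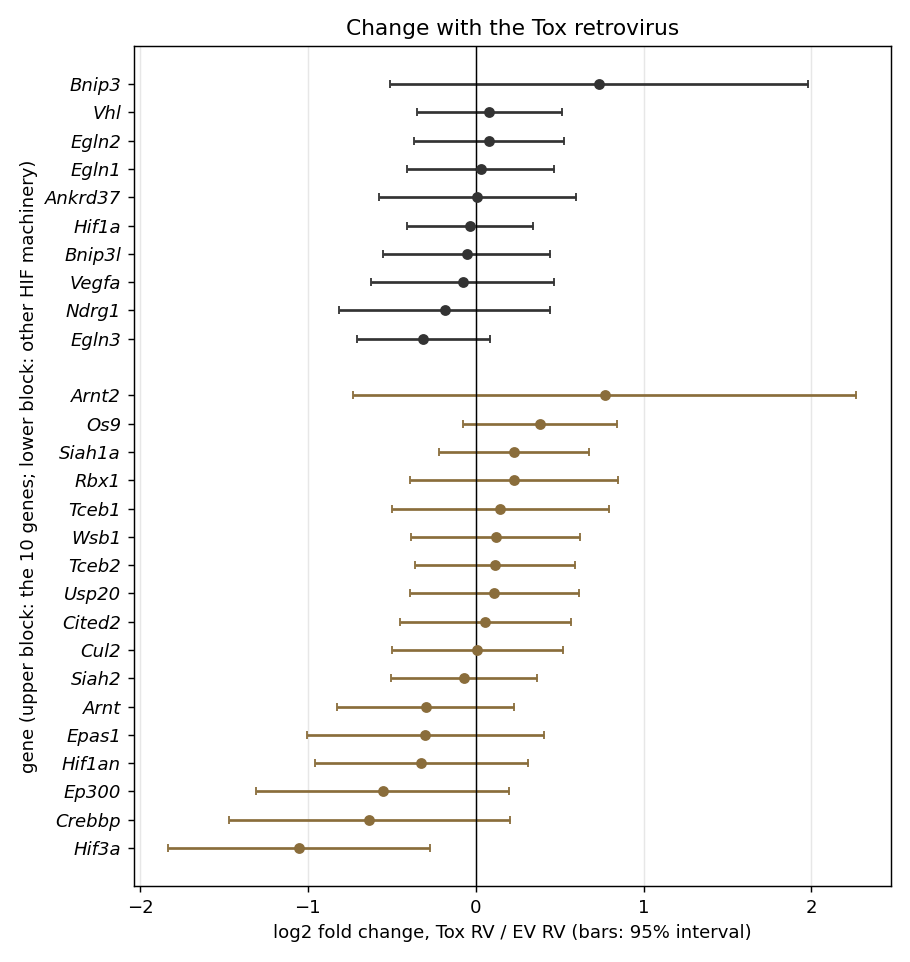
Log2 fold change of Tox RV over EV RV (points) with its 95% interval (bars), for the 10 genes (upper block) and 17 other genes of the HIF machinery (lower block), each sorted by value. All intervals of the 10 genes cross 0, the widest being that of *Bnip3* (-0.51 to 1.98), and of the machinery genes the interval of *Hif3a* (-1.83 to -0.27) does not.

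Other genes of the HIF machinery were taken from a list of 17, all of which were tested. In edgeR's quasi-likelihood test 0 of 17 passed an adjusted p of 0.05 in either direction, and 1 (*Hif3a*) had an unadjusted p under 0.05, where 3.62% of all genes did. In DESeq2, too, 0 passed at an adjusted p and 1 at an unadjusted one, beside 4.21% of the genes edgeR tested. Of the 17 log2 fold changes 10 were positive and 7 negative, with a median of 0.06, beside 7135 positive and 7008 negative over all genes tested. Tox RV was wholly above EV RV in 2 of 17 (11.8%, beside 18.6% of all genes) and wholly below in 3 (17.6%, beside 17.4%). Of the partner subunits, *Arnt* measured 42.7 and 31.0 CPM for EV RV against 30.8 and 29.1 CPM for Tox RV, a log2 fold change of -0.30 (SE 0.21), with groups that did not overlap although EV RV replicate 2 and Tox RV replicate 1 nearly coincided. *Hif1a* exceeded *Arnt* per length in every library, by a TPM ratio of 22.9 and 30.8 for EV RV against 30.7 and 32.5 for Tox RV.

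*Epas1*, which encodes HIF-2α, measured 115 and 202 CPM for EV RV against 125 and 132 CPM for Tox RV, with both Tox RV libraries inside the range of the EV RV libraries. *Hif3a*, which encodes a HIF subunit with short forms that can inhibit HIF-1, was weakly expressed. It measured 5.31 and 3.94 CPM for EV RV against 2.59 and 1.85 CPM for Tox RV, a lower level in each Tox RV library. Its log2 fold change was -1.05 (SE 0.32, adjusted p = 0.897 by edgeR), and leaving out any library gave -1.32 to -0.83.

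The coactivators that HIFs bind, *Crebbp* and *Ep300*, were both highest in EV RV replicate 1. *Crebbp* was at 259 CPM there and at 122 to 128 CPM in the other 3 libraries, and *Ep300* at 201 CPM there and at 104 to 108 CPM in the others. Their log2 fold changes of -0.63 and -0.55 became -0.04 and -0.05 without that library. *Hif1an*, the asparagine hydroxylase that blocks this coactivator binding, followed with 68.3 CPM in EV RV replicate 1 and 41.5 to 47.7 CPM in the others. The ligase partners of VHL, *Cul2*, *Rbx1*, *Tceb1* (elongin C) and *Tceb2* (elongin B), had log2 fold changes of 0.01, 0.23, 0.15 and 0.12, and their groups overlapped.

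The machinery genes with Tox RV wholly above EV RV were *Os9* and *Siah1a*, a smaller share (11.8%) than among all genes (18.6%). *Os9*, an endoplasmic reticulum lectin, measured 88.0 and 111 CPM for EV RV against 128 and 131 CPM for Tox RV, a log2 fold change of 0.38 (SE 0.19). *Siah1a*, a ubiquitin ligase of a family that targets prolyl hydroxylases, measured 12.1 and 11.6 CPM against 13.5 and 14.3 CPM, a log2 fold change of 0.23 (SE 0.18). Neither passed the test (adjusted p = 0.897 by edgeR). In the remaining 5 the groups overlapped, with log2 fold changes of 0.77 for *Arnt2*, a paralog of *Arnt* with 19 to 75 counts, 0.06 for *Cited2*, which competes with HIFs for the coactivators, -0.07 for *Siah2*, 0.11 for the deubiquitinase gene *Usp20* and 0.12 for the ubiquitin ligase gene *Wsb1*.

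A list of 51 further hypoxia target genes, among them the glycolytic enzymes, placed *Bnip3* in context. Of these 49 were tested, and *Epo* and *Lox* had at most 2 counts in a library, which is too few to detect a change. In edgeR's quasi-likelihood test 0 of 49 passed an adjusted p of 0.05, and at an unadjusted p under 0.05 there were 2 higher (*Slc2a3* and *Hk1*) and 1 lower (*Zfp395*), beside 1.07% higher and 2.55% lower among all genes. DESeq2 also called 0 of 49 at an adjusted p under 0.05, and 3 at an unadjusted one, beside 4.21%. Of the 49 log2 fold changes 35 were positive and 14 negative, with a median of 0.21. Over all genes tested 7135 were positive and 7008 negative, with a median of 0.0036. Tox RV was wholly above EV RV in 12 of 49 (24.5%, beside the 18.6% of all genes) and wholly below in 4 (8.16%, beside 17.4%).

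This balance moved with EV RV replicate 1. That library was the lowest of the 4 in 33 of the 49 targets (67.3%), against 37.0% of all genes tested, and in 4 of the 10 genes described above (*Bnip3*, *Vegfa*, *Ankrd37* and *Egln2*). It was the highest in 14 of the 49 and in 4 of the 10, against 37.0% of all genes. Leaving it out gave the 49 targets a median log2 fold change of 0.04, against 0.52 when EV RV replicate 2 was left out instead. Set against EV RV replicate 2 alone, both Tox RV libraries were higher in 16 targets and lower in 15 (32.7% and 30.6%), where over all genes it was 36.9% and 33.5%. The targets furthest below EV RV replicate 2 in EV RV replicate 1 were *Higd1a*, *Stc2* and *Hk2*. *Higd1a*, a small mitochondrial protein, was at 31.3 CPM there and 62.2 to 94.2 CPM in the other 3 libraries. *Hk2*, the inducible hexokinase, was at 89.7 CPM there and 205 to 246 CPM in the others, and *Stc2*, a secreted glycoprotein, at 6.73 CPM against 12.4 to 19.9 CPM. *Bnip3* was low in the same library as these genes, which were picked for that difference. *Zfp395*, with the next largest difference between the EV RV libraries, was higher in EV RV replicate 1 (20.1 against 7.16 CPM). *Vhl* and *Hif1a* differed little between the EV RV libraries, while *Crebbp* (259 and 128 CPM) and *Epas1* (115 and 202 CPM) differed more.

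**Figure D3:**
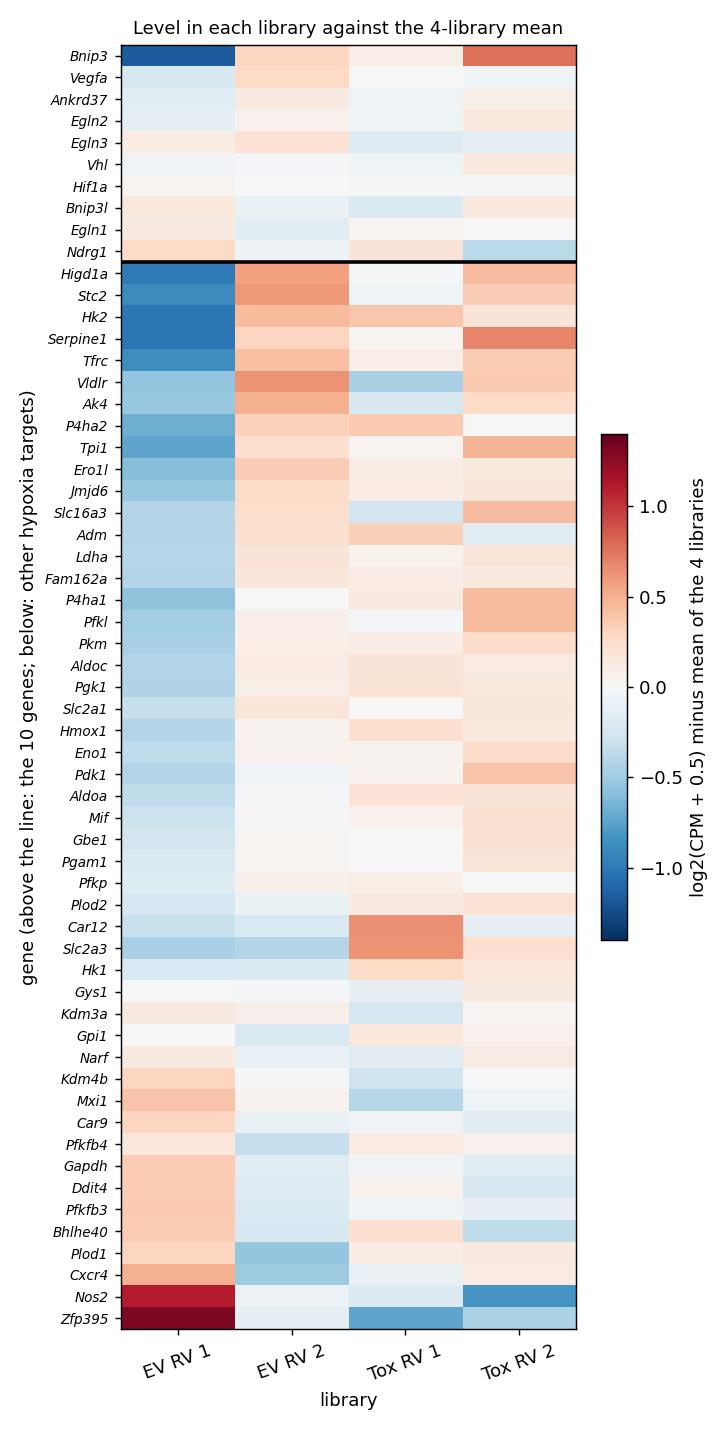
Level of each gene in each library as log2(CPM + 0.5) minus its mean over the 4 libraries (red higher, blue lower), for the 10 genes (above the line) and 49 other hypoxia targets (below), each block sorted by the difference between the EV RV libraries. The column of EV RV replicate 1 is lowest in 33 of the 49 targets and in 4 of the 10 genes, and highest in 14 and 4, while the row of *Hif1a* is nearly without colour.

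In *Slc2a3*, which encodes the glucose transporter GLUT3, the groups stood apart without resting on that library. It measured 85.2 and 87.9 CPM for EV RV against 181 and 137 CPM for Tox RV. Its log2 fold change of 0.88 (SE 0.20, adjusted p = 0.897 by edgeR, adjusted p = 0.217 in DESeq2) was the most positive of the 49 and ran from 0.66 to 1.06 when any library was left out. *Slc2a1*, the GLUT1 gene, measured 90.3 and 128 CPM for EV RV against 112 and 127 CPM for Tox RV, with a log2 fold change of 0.13. *Slc2a1* was looked at after the values of *Slc2a3* had been seen.

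The next largest positive log2 fold changes among targets whose groups did not overlap were those of 0.58 for *Car12*, a carbonic anhydrase, 0.54 for *P4ha1*, a collagen prolyl hydroxylase subunit, and 0.45 for *Pdk1*, the kinase that restrains pyruvate dehydrogenase. None of these 3 passed the test (adjusted p = 0.897 by edgeR). The log2 fold change of *Car12* was 0.15 without Tox RV replicate 1, and those of *P4ha1* and *Pdk1* were 0.28 and 0.27 without EV RV replicate 1. Of the 4 targets below, *Zfp395* had a log2 fold change of -1.43 (SE 0.49), with 20.1 and 7.16 CPM for EV RV against 4.49 and 5.61 CPM for Tox RV, and it was -0.51 without EV RV replicate 1. *Nos2*, the inducible nitric oxide synthase, had few counts (68 and 33 for EV RV, 23 and 3 for Tox RV). *Mxi1*, a MAX partner that opposes MYC, and *Kdm3a*, a histone demethylase, had log2 fold changes of -0.46 and -0.20.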

How the data were processed

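Per the labels and the methods, naive CD4 T cells were transduced, sorted for GFP and sequenced as 4 libraries, 2 EV RV and 2 Tox RV. The authors aligned reads to mm10 transcripts with bowtie and quantified genes with RSEM. The deposited expected counts are RSEM's estimated fragments per gene, not normalized. The deposited TPM values are RSEM's transcripts per 1000000, corrected for effective length. Versions and the use of strand are not given in the sources used here. Per the labels the processing also named FastQC, Bowtie2 and DESeq2. A deposited table over all libraries was not used.

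Expected counts were first rounded. Low-count genes were removed with filterByExpr (minimum count 10), scaled by TMM and compared with edgeR 4.0.16 (glmQLFit and glmQLFTest, R 4.3.3), without a block, with Benjamini-Hochberg adjustment over the 14143 genes tested. Standard errors came from the fold change and the F statistic, and 95% intervals from these with the test's degrees of freedom. Log2 differences between replicates used CPM + 0.5. DESeq2 1.42.0, the tool of the methods, and limma 3.58.1 on log2(TPM + 1) and log2(TPM + 0.1) were alternatives, as were median-of-ratios scaling, library totals, leaving out *Rn45s*, no low-count filter, the replicate number as a block and leaving out each library. The tests were first run on simulated counts with known fold changes. These counts had no outlying library and no link between same-numbered libraries, so they do not bear on either. With 2 libraries in a group, p-values rest on the spread between these libraries together with a variance shared across genes (prior degrees of freedom 3.77 in edgeR).

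The 10 genes and the lists were chosen with earlier results of these data known. Named genes were the 10, machinery genes, and of the targets those past an adjusted p of 0.05 in either tool, the 4 largest changes in each direction among those with groups that did not overlap and the 4 largest differences between the EV RV libraries. Others are marked as chosen later, apart from *Hk1*, *Ero1l*, *Tfrc*, *Epo* and *Lox*, which were also named after their values were seen. *Trac*, *Trbc1* and *Trbc2* of the CD4 T cell markers were not matched. Gene coordinates came from GENCODE M21 (mm10) and promoters from RefSeq (GRCm38.p6).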

Additional observations from a re-analysis of the deposited data

How the results depend on the processing

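In 12 alternatives each, the 10 genes gave 120 log2 fold changes, of which 0 passed an adjusted p of 0.05 and 21 had the other sign. The signs of *Egln3* and *Bnip3* held in all 12. With library totals alone, which moved the median of all genes from 0.0036 to 0.12, the values were 0.089 for *Hif1a*, 0.078 for *Bnip3l* and 0.030 for *Vegfa*, and the groups did not overlap in 1 of the 10 genes rather than 2. With limma on log2(TPM + 1) and log2(TPM + 0.1), respectively, they were -0.0459 and -0.0466 for *Egln1*, -0.0019 and -0.0020 for *Egln2*, -0.0047 and -0.0051 for *Vhl* and -0.0594 and -0.0637 for *Ankrd37*. The median of all genes was -0.0487 and -0.0678 in these 2 settings. Leaving out any library gave -0.10 to 0.17 for *Egln1*, -0.023 to 0.19 for *Egln2*, -0.017 to 0.17 for *Vhl*, -0.23 to 0.10 for *Bnip3l*, -0.31 to 0.21 for *Vegfa*, -0.50 to 0.075 for *Ndrg1* and -0.14 to 0.18 for *Ankrd37*. The cause was not tested. With libraries left out, 0 to 2 machinery genes and 0 to 4 further targets passed an adjusted p of 0.05, all of them without EV RV replicate 2, where 600 of 14408 genes passed and EV RV replicate 1 stood alone for its group (*Crebbp* and *Ep300* lower, *Zfp395* lower, *Hk2*, *Ero1l* and *Tfrc* higher). The lone library was assumed to vary like the other group. Without EV RV replicate 1, an alternative chosen after seeing the data, the Tox RV libraries lay on 1 side of the remaining EV RV library in 5 of the 10 genes and 31 of 49 targets (63.3%, against 70.4% of all genes), a condition that fewer libraries make easier to meet.

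With the replicate number as a block, 0 of the 10 genes, 0 machinery genes and 0 further targets passed an adjusted p of 0.05, and 16 of 14143 genes did. *Tox* was among the 16 (adjusted p = 1.08e-05 by edgeR). The log2 fold change of *Bnip3* was then 0.88 (adjusted p = 0.210 by edgeR). Same-numbered libraries deviated together across genes (correlation 0.38), but the labels do not say that a number marks a shared mouse or day. With 2 libraries in a group, the intervals given above for the 10 genes all included 0. Changes of the sizes inside these intervals, in either direction, were therefore not excluded.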
